A study of Mus musculus with 2 samples.

Results

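Interferon-response T cells are T cells that carry many transcripts of interferon-stimulated genes at once. They were chosen here as droplet barcodes with at least 1 unique molecular identifier (UMI, 1 captured transcript) for 4 or more of 9 genes, Ifit1, Ifit3, Isg15, Usp18, Irf7, Rtp4, Ifi206, Ifi208 and Ifit1bl1, and with fewer than 3 summed UMIs of the B cell genes Cd79a, Cd79b and Ms4a1. The rule found 463 such barcodes among 11363 kept ones, 139 of 4820 in the lymph node library and 324 of 6543 in the spleen library. They were compared with the 2636 lymph node and 3491 spleen barcodes in which none of the 9 genes was detected. Because measured transcripts chose the members, every difference from these comparison barcodes is a description, and no test was made.

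The donors were female mice of the genotype Mycfl/flFoxp3Cre/WT, described as healthy, in which both Myc copies are floxed and 1 of the 2 Foxp3 alleles carries Cre, so regulatory T (Treg) cells with and without a Cre allele in use coexist. CD4+ CD25+ cells, positive and negative for the YFP reporter, were sorted together, and each tissue gave 1 droplet library. The sources used here give neither the number of animals nor the YFP status of a barcode, and both libraries share the genotype, so no unfloxed control was compared. With 1 library per tissue no difference has a replicate check. All intervals are 95% intervals that cover counting error only.

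Interferons are secreted when cells sense foreign nucleic acids. Type I interferon binds the receptor Ifnar1 with Ifnar2, and the receptor's kinases activate transcription factors, among them Stat2, which joins Irf9, that bind interferon-stimulated response elements in promoters. The induced genes encode nucleic acid sensors, proteins that block viral RNA or membranes, the ubiquitin-like protein Isg15 and large GTPases, and some T cells carry them even in resting animals.

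Of the 9 rule genes, 6 of the 7 with a RefSeq promoter window held the core of that element, written here as GAAA, any 2 bases, GAAA on either strand, in the 300 bases from 250 before to 50 after the annotated start. The stretches below, 80 bases each from build GRCm38.p6 and read 5′ to 3′ on the strand of the gene, show where it lies in 5 of them. Capitals mark every match, and a match on the opposite strand reads TTTC, any 2 bases, TTTC.
Isg15, chr4:156200847-156200926, minus strand: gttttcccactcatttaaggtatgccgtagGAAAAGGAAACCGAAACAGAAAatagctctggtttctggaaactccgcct
Ifit1, chr19:34640755-34640834, plus strand: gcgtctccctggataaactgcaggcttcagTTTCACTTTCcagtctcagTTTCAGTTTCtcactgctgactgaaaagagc
Ifit3, chr19:34583343-34583422, plus strand: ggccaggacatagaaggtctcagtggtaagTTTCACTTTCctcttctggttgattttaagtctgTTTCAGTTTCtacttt
Ifi206, chr1:173491309-173491388, minus strand: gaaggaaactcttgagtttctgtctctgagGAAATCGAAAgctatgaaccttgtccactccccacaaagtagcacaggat
Ifi208, chr1:173673577-173673656, plus strand: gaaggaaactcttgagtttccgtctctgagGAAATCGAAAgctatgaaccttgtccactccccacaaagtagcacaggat
The Isg15 window held 3 overlapping matches, the first 78 bases before the start, and the Ifit1 and Ifit3 windows held 2 each. The Ifi206 and Ifi208 stretches matched at 79 of 80 bases, and both genes are of the p200 family. Their transcripts were not compared, and whether reads of either gene were counted under the other was not tested. No window was found for Usp18 or Rtp4, and the Irf7 window held none of these letters.

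Isg15 (ENSMUSG00000035692, chromosome 4, 156199424 to 156200818, minus strand of GRCm38) encodes the ubiquitin-like modifier and had the highest level of the 9, at 792 CPM (counts scaled to a total of 1000000 UMIs, interval 711 to 879) in lymph node members and 776 CPM (interval 719 to 835) in spleen members. It was detected in 82.0% and 80.2% of members. Ifit1 (ENSMUSG00000034459, chromosome 19, 34640871 to 34650009, plus strand), which binds foreign RNA ends, stood at 538 and 621 CPM and was detected in 68.3% and 69.1%. Ifit3 (chromosome 19, 34583531 to 34588731), its binding partner, stood at 340 and 354 CPM and Ifit1bl1 (chromosome 19, 34592891 to 34601956), a member of the same family, at 152 and 160 CPM. These 3 genes lie within one cluster on chromosome 19.

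Irf7 (chromosome 7, 141262706 to 141266481), the transcription factor that amplifies type I interferon production, was at 324 CPM in lymph node and 303 CPM in spleen members. Usp18 (chromosome 6, 121245906 to 121270917), which removes Isg15 from proteins and dampens receptor signalling, was at 229 and 260 CPM. Rtp4 (chromosome 16, 23520291 to 23614222), a chaperone of receptors, was at 320 and 401 CPM. Of the p200 genes, Ifi206 (chromosome 1, 173468485 to 173491041) was at 479 and 504 CPM and Ifi208 (chromosome 1, 173673675 to 173698395) at 143 and 215 CPM. Since a 3' library counts each captured molecule once, these levels carry no length correction. Isg15, Ifit1 and Ifi206 stood highest in both libraries. The lymph node intervals of Ifit3, Irf7 and Rtp4 overlapped, as did those of Ifit1 and Ifi206.

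Most kept barcodes held few of the 9 genes. Under the B cell limit, 2569 lymph node and 3426 spleen barcodes had none, 1407 and 1822 had 1, and 427 and 628 had 2. Just outside the threshold, 168 lymph node and 237 spleen barcodes had 3 genes, at 10.5 and 12.7 UMIs of the 9 genes per 10000. Just inside it, 52 and 123 barcodes had 4 genes, at 17.5 and 21.5 UMIs per 10000. Counts went down step by step with no gap at the threshold, so the limit of 4 genes cuts a continuous range, and 1 lymph node and 6 spleen barcodes had all 9.

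**Figure D1:**
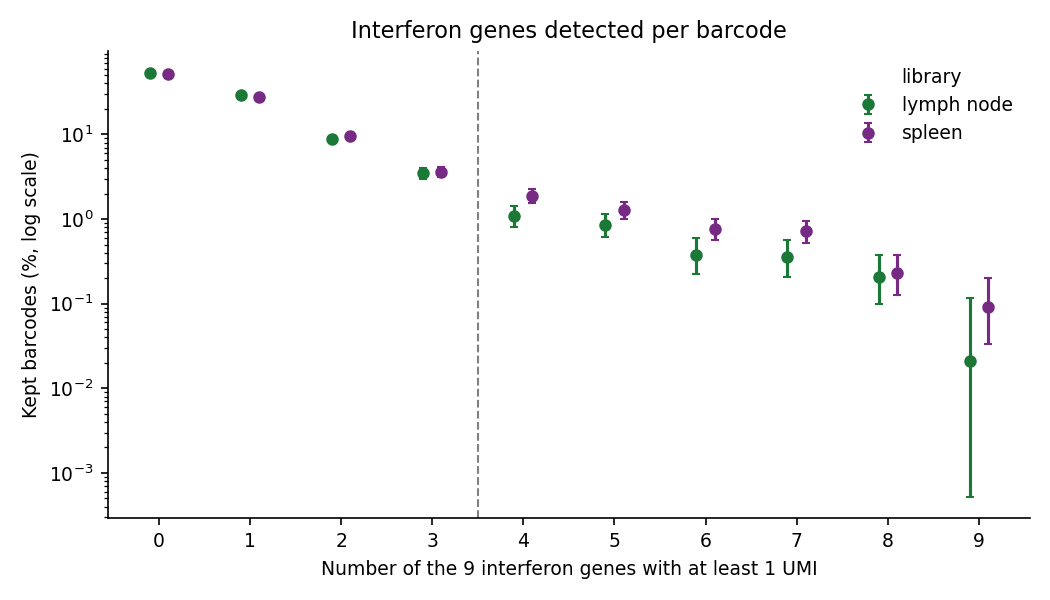
Share of kept barcodes (percent, log scale) by the number of the 9 interferon genes with at least 1 UMI, for the lymph node and spleen libraries; bars are exact binomial 95% intervals and the dashed line marks the threshold of 4 genes. The spleen points lie above the lymph node points from 2 genes on, at 9.60% against 8.86% there and 1.88% against 1.08% at 4 genes, and no gap separates 3 from 4 genes.

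Members were a larger share of the spleen library. They made up 2.88% of kept lymph node barcodes (exact binomial interval 2.43 to 3.40) and 4.95% of kept spleen barcodes (interval 4.44 to 5.51), a ratio of 1.72 in shares. Members were also deeper, with a median of 2497 UMIs in lymph node and 2147.5 in spleen against 1880 and 1842 in comparison barcodes. With every barcode thinned to 1200 UMIs (252 barcodes of the lymph node and 525 of the spleen were too shallow), the shares were 1.40% (64 of 4568) and 2.44% (147 of 6018), a ratio of 1.74. The ratio lay between 1.35 and 1.79 over the 8 alternatives tried. The sort on CD4, CD25 and YFP can set these shares, and with 1 library per tissue the difference between tissues and that between libraries cannot be told apart.

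T cell transcripts were detected at similar shares in members and comparison barcodes. At 1200 UMIs per barcode Trac, the constant part of the T cell receptor alpha chain, had a UMI in 64.4% of lymph node and 62.3% of spleen members. The shares were 64.1% and 65.2% in comparison barcodes under the B cell limit and 19.1% and 26.0% in barcodes with 3 or more B UMIs, which should lack it. All 139 lymph node and 324 spleen members held at full depth a UMI of a Cd3 or T cell receptor constant gene, but Trbc1 or Trbc2 alone was also found in 70.9% and 58.5% of the B barcodes. Cd4, the co-receptor used in the sort, was at 150 CPM in lymph node and 111 CPM in spleen members, against 129 and 115 CPM in comparison barcodes. Cd8a or Cd8b1, the co-receptor chains of cytotoxic T cells, had a UMI in 9 lymph node and 27 spleen members (6.47% and 8.33%), against 5.08% and 5.36% of comparison barcodes and 7.27% and 1.89% of barcodes with 3 or more B UMIs. At 1200 UMIs the shares were 4.44% and 4.79% of members (intervals 1.65 to 9.42 and 2.71 to 7.78), 3.33% and 2.89% of comparison barcodes and 1.82% and 0.962% of B barcodes, so a single such UMI does not mark a CD8 T cell. Cd8a was at 29.5 against 6.10 CPM in the lymph node library and at 21.1 against 3.70 CPM in spleen. The sort should remove CD8 T cells, and whether these members are CD4 T cells was not tested. In lymph node 10 of the 13 Cd8a UMIs lay in 1 member. The share of kept barcodes that were members without a Cd8a or Cd8b1 UMI was 2.70% and 4.54%.

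Markers of other cells were detected in part, and the number at 0 UMIs differed by list. Of 12 natural killer or innate lymphoid genes, 7 were at 0 in lymph node members and 0 were in spleen members. Their sum was 182 CPM in members of each library, against 194 CPM in lymph node and 189 CPM in spleen comparison barcodes. Of 14 B cell markers, 5 were at 0 in members of each library. Of the plasmacytoid dendritic cell list, 7 of 11 genes in lymph node members and 5 of 11 in spleen members were at 0 UMIs, Siglech among them in both. Of 14 myeloid genes, 10 were at 0 in members of each library, while the list's sum was 526 CPM in lymph node members against 457 CPM and 620 CPM in spleen members against 565 CPM. Most of these sums came from Ctss and Cst3, a protease and a protease inhibitor that many cell types express, and the part of myeloid RNA in other results was not tested. The summed erythroid level was 125 CPM in lymph node members against 542 CPM in comparison barcodes and 0 against 0.716 CPM in spleen. The B cell limit was set for members only, and 67 lymph node and 65 spleen comparison barcodes held 3 or more B UMIs. The count of lower genes is therefore also given against comparison barcodes under the same limit. Levels of single genes and medians of lists within a library are against all comparison barcodes unless stated. Between the libraries 53 barcode sequences were shared, and 5 spleen members and 0 lymph node members carried one.

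Beyond the rule genes, 82 of 5131 genes with at least 20 CPM in either class of each library were at least 2-fold higher in members of both libraries, which is 1.6% of the genes tested. In lymph node alone 117 genes (2.28%) and in spleen alone 93 genes (1.81%) were that much higher. Of 126 listed interferon-stimulated genes outside the 9, 118 were in the gene table and 92 passed the level. Among the 92, 88 were higher in each library, 68 were at least 2-fold higher in both, and the median log2 ratios were 1.71 in lymph node and 1.73 in spleen, against -0.03 and -0.05 over all genes. A gene that passed the level only through members had to be higher, so these counts describe the genes that passed and not the whole list. With the level set over all kept barcodes, an alternative added after seeing the data, 67 listed genes passed with medians of 1.47 and 1.49, and 54 genes in all were at least 2-fold higher in both.

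**Figure D2:**
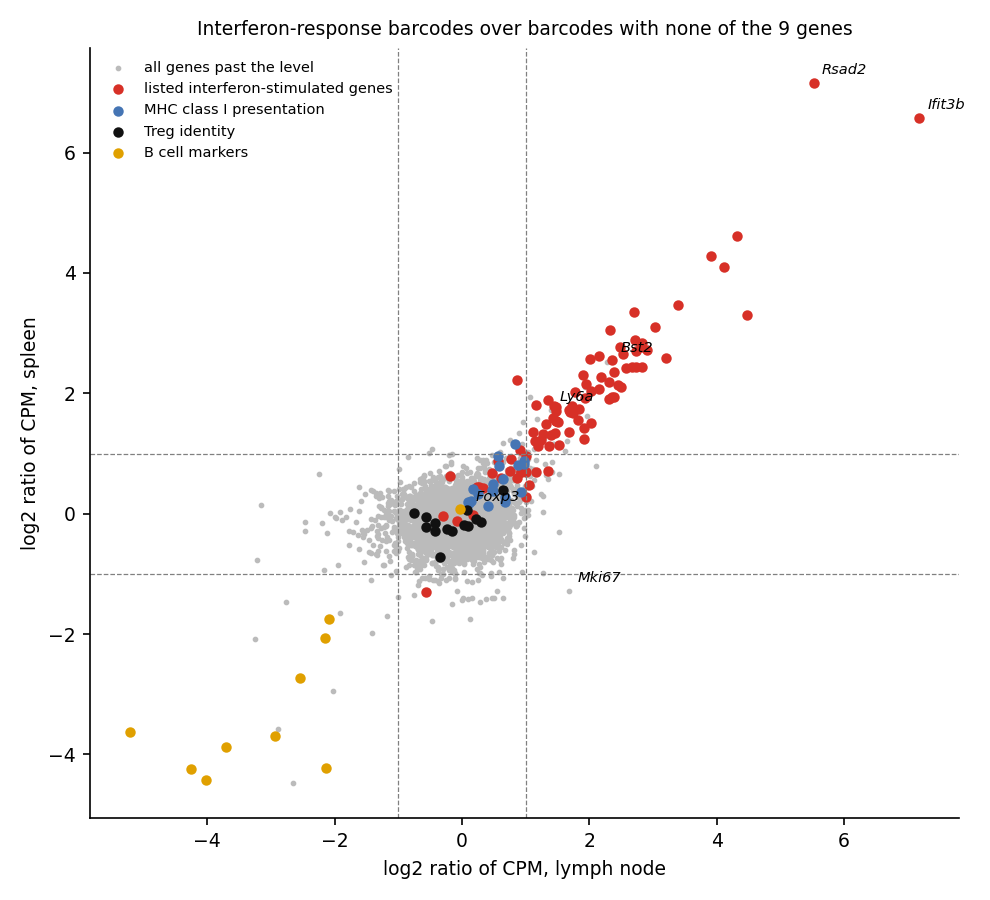
Each point is a gene past the level, with the log2 ratio of CPM in interferon-response over comparison barcodes in lymph node (x axis) and spleen (y axis); the 9 rule genes are left out and dashed lines mark 2-fold. Listed interferon-stimulated genes fill the upper right with medians of 1.71 and 1.73, B cell markers the lower left, and Mki67 is higher in lymph node and lower in spleen. The B cell limit was set for members and not for the comparison barcodes shown, so the place of the B cell markers follows from the rule. With the same limit on both, 4 of these markers passed the level, with medians of 0.083 in lymph node and -0.31 in spleen.

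Sensors of nucleic acids were among the genes with the largest ratios, and all 7 that passed the level were higher in lymph node and 6 in spleen. Ddx60, a helicase of the RNA sensing pathway, was at 95.3 CPM in lymph node members against 12.7 in comparison barcodes, 7.52-fold higher (interval 5.06 to 11.1). In spleen it was at 79.0 against 11.9 CPM, 6.62-fold higher (interval 4.82 to 9.07). Zbp1, a sensor of Z-form nucleic acids that can start cell death, was at 356 against 68.3 CPM (5.21-fold, interval 4.32 to 6.27) and 353 against 69.1 CPM (5.11-fold, interval 4.44 to 5.87). The RNA sensor gene Ifih1 was 7.14-fold and 5.43-fold higher and Dhx58, its regulator, 7.12-fold and 7.15-fold. The median log2 ratio of this list was 2.38 and 2.35. Over 12 alternatives in processing it ranged from 1.58 to 2.65 in lymph node and from 1.07 to 2.69 in spleen. Here and in the lists below, a gene that passed the level only through members had to be higher. The counts and medians of each list thus describe the genes that passed.

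Of the IFIT and RNA-binding effectors, all 16 that passed the level were higher in both libraries, with median log2 ratios of 2.07 and 2.15. Over 12 alternatives the medians ranged from 1.60 to 2.29 in lymph node and from 1.35 to 2.46 in spleen. Isg20, an RNA exonuclease, was at 209 against 29.7 CPM in the lymph node library (7.03-fold, interval 5.42 to 9.06) and 249 against 36.6 CPM in spleen (6.81-fold, interval 5.70 to 8.11). Ifit3b was at 45.4 against 0.313 CPM and at 91.2 against 0.954 CPM, but its 80 promoter bases around the motif were identical to those of Ifit3. The transcripts were not compared. Whether reads of Ifit3, a rule gene, were counted under Ifit3b was not tested, so the Ifit3b ratio is uncertain. Oas3, which makes the messenger that activates RNA decay, was at 29.5 against 2.81 CPM and 35.6 against 3.22 CPM, and the related Oasl2 at 52.2 CPM in lymph node members and 41.2 CPM in spleen members, against 2.35 and 4.17 CPM.

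Membrane and nucleotide effectors were higher in 31 of 33 genes in each library, with medians of 1.48 and 1.52. Bst2, or tetherin, which holds budding virus at the cell surface, was at 526 against 102 CPM in the lymph node library (5.14-fold, interval 4.41 to 5.98) and at 569 against 96.7 CPM in spleen (5.88-fold, interval 5.25 to 6.57). It had a UMI in 62.6% and 63.6% of members at their full depth. At 1200 UMIs per barcode the shares were 46.7% and 45.4% of members, 11.6% and 11.7% of comparison barcodes under the B cell limit, and 10.9% and 9.62% of barcodes with 3 or more B UMIs. Rsad2, or viperin, was at 43.1 against 0.938 CPM and 51.2 against 0.358 CPM, and its neighbour Cmpk2, a nucleotide kinase, at 40.8 against 2.35 and 36.7 against 2.15 CPM. Ifitm3, which blocks viral fusion, was at 70.3 against 4.69 CPM in the lymph node library and 87.9 against 4.53 CPM in spleen. Its 31 lymph node UMIs came from 11 members, with 12 in 1 of them. The most abundant gene of all the listed ones, Ifi27l2a, was at 4028 against 1220 CPM (3.30-fold) and 4038 against 1163 CPM (3.47-fold).

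Immunity-related and guanylate-binding GTPases, which attack vacuoles of intracellular microbes, were higher in 12 of 12 genes in both libraries (medians 1.85 and 1.78). Irgm1 was at 204 against 35.3 CPM (5.78-fold, interval 4.47 to 7.41) and 187 against 29.8 CPM (6.27-fold, interval 5.13 to 7.65), and Gbp6 at 129 against 14.1 and 77.9 against 13.0 CPM. In the ISG15 and ubiquitin pathway 17 of 19 genes in lymph node and 18 of 19 in spleen were higher (medians 1.47 and 1.59). Its examples were Rnf213, a giant ubiquitin ligase, 6.61-fold and 7.42-fold higher, and Herc6, a ligase that attaches Isg15, 5.12-fold and 3.85-fold higher. Of the p200 family, whose members bind DNA, 5 of 5 genes were higher (medians 1.93 and 1.92). Ifi203 was at 638 against 196 CPM and 603 against 186 CPM, and Ifi209 at 365 against 95.8 and 352 against 93.1 CPM.

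Not every listed gene followed. Trim14 (0.877 of the comparison level in lymph node and 1.54-fold in spleen), Trim5, Ifitm2, Ifi27 and Tmem173, which encodes the adaptor of DNA sensing, were not higher in at least 1 library. These 5 were named after their values were seen. Ifitm2 was at 0.675 and 0.404 of the comparison level, and Ifi27, with 161 and 160 CPM in members, at 0.948 and 0.921.

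**Figure D3:**
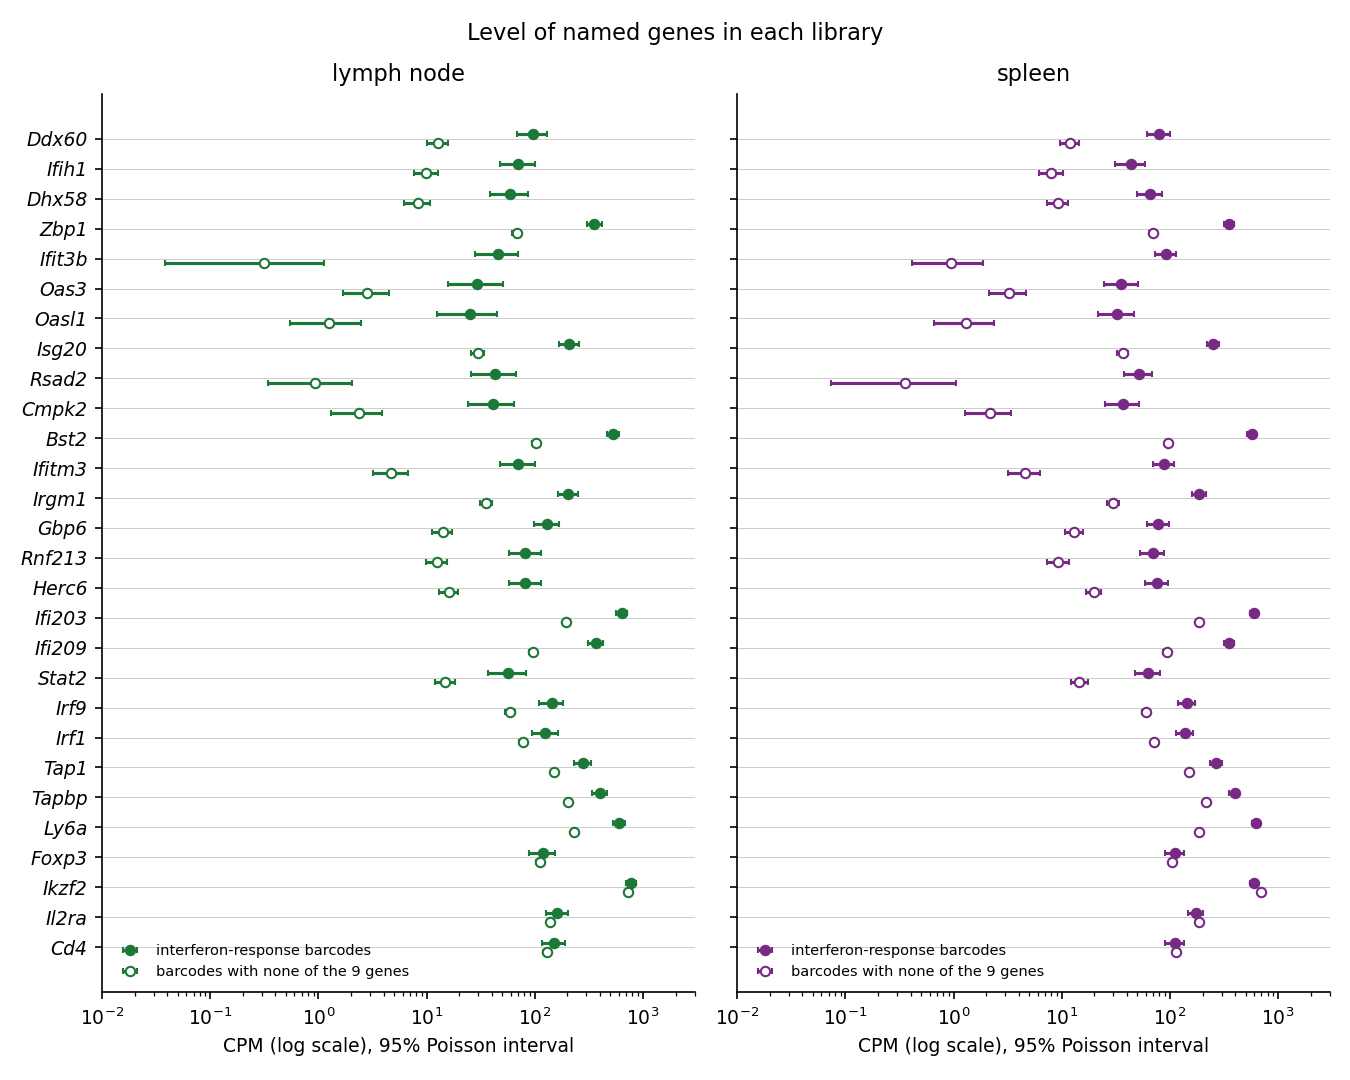
CPM (log scale) of 28 genes in interferon-response barcodes (filled) and comparison barcodes (open) of each library, with exact Poisson 95% intervals. Intervals are apart for the interferon-stimulated genes at the top, whereas those of Foxp3, Il2ra and Cd4 at the bottom overlap.

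Promoters of the genes outside the rule held the same letters more often than promoters in general. Of the 82 genes at least 2-fold higher in both libraries, 67 had a RefSeq window and 32 of them, 47.8%, held the response element core, against 4.63% of the 4108 genes past the level with a window and 3.99% of 27025 genes in all. Among the 10 of the 82 that are in no interferon list, 9 had a window and 1 held the core. Genes higher in both libraries, but not by 2-fold in both, held it in 5.51% of 890. Those of them at least 1.5-fold higher in both held it in 14.3% of 49. Of 20 listed genes of MHC class I presentation, 16 had a window and 5 held the core, 31.25%. The core of the gamma-activated site, TTCNNNGAA, an element of promoters that respond to interferon gamma, was in 20.9% of the 67 and in 9.55% of all genes. No window of the 7 rule genes held it. The stretches of 4 further genes, chosen as examples from different roles, are given in the same way.
Bst2, chr8:71537553-71537632, minus strand: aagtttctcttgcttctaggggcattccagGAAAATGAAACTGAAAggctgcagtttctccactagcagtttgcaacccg
Irgm1, chr11:48871401-48871480, minus strand: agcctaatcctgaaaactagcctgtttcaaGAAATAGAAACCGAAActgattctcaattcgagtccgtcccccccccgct
Oas3, chr5:120777685-120777764, minus strand: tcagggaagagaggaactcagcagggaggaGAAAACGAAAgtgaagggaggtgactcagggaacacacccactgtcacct
Stat2, chr10:128270248-128270327, plus strand: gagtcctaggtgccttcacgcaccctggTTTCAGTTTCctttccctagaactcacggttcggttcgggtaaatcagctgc
The Bst2 match began 130 bases and the Oas3 match 75 bases before the start. A match describes letters in a window and does not show that a factor binds there.

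Genes that carry the interferon signal were partly higher. Stat2, a transcription factor of the type I interferon pathway, was at 56.7 against 14.9 CPM and 62.3 against 14.6 CPM, and Irf9, its partner on the response element, at 143 against 58.8 and 144 against 60.2 CPM. The receptor gene Ifnar1 was at 84.0 against 70.0 CPM and 57.9 against 62.9 CPM, and Ifngr1, a chain of the interferon gamma receptor, at 188 against 211 and 179 against 163 CPM. Their ratio intervals include equality, at 0.833 to 1.68 and 0.679 to 1.23 for Ifnar1. Irf1, a factor induced by both interferon types, was 1.61-fold (interval 1.20 to 2.13) and 1.91-fold (interval 1.56 to 2.32) higher.

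Transcripts of interferons themselves were near 0. None of the 10 listed interferon genes passed the level, and their summed level in members was 4.54 CPM in lymph node and 2.23 CPM in spleen, against 10.0 and 7.16 CPM in comparison barcodes. Of the 10 genes, 9 had no UMI in members of either library, and Ifng, the remaining one, had 2 in each. Of 8 feedback inhibitors 4 were higher and 4 lower in each library, with Socs1 at 172 against 134 CPM in the lymph node library and 179 against 174 CPM in spleen.

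Antigen presentation genes were higher by smaller ratios. All 19 genes of the MHC class I list past the level were higher in both libraries, with medians of 0.56 in lymph node and 0.40 in spleen. For comparison, 46.9% of all genes were higher in lymph node and 42.4% in spleen. Tap1, which carries peptides into the endoplasmic reticulum, was at 277 against 150 CPM (1.84-fold, interval 1.51 to 2.23) and 265 against 151 CPM (1.75-fold, interval 1.52 to 2.01). Tapbp, which bridges Tap1 and the MHC molecule, was 1.97-fold and 1.83-fold higher, and Psmb10, a subunit of the immunoproteasome, 1.96-fold and 1.78-fold. The constitutive proteasome genes had medians of 0.09 and -0.09. Ly6a, the surface antigen Sca-1, was at 604 against 229 CPM in the lymph node library (2.63-fold) and at 619 against 187 CPM in spleen (3.32-fold).

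Treg genes differed little between members and comparison barcodes. Foxp3, which defines Treg cells, was at 118 against 111 CPM in the lymph node library (ratio interval 0.783 to 1.40) and 110 against 105 CPM in spleen (interval 0.841 to 1.29). Ikzf2, the factor Helios, was at 771 against 723 CPM and 600 against 690 CPM, where the spleen ratio interval of 0.794 to 0.949 lies below equality, and Il2ra, or CD25, at 161 against 139 and 172 against 184 CPM. The 14 Treg identity genes had medians of -0.20 and -0.17, and 0 of them passed 2-fold in either direction. Tnfrsf9 and Tnfrsf18, costimulatory receptors of activated Treg cells, were lower, at 104 against 162 and 92.4 against 168 CPM for Tnfrsf9 and at 297 against 397 and 356 against 437 CPM for Tnfrsf18. T cell receptor genes had medians of 0.01 and -0.03.

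Of the 82 genes, 10 were in no interferon list: 1600014C10Rik, 9930111J21Rik2, BC051226, Ccr2, Cd8a, Gzmb, Mitd1, Nampt, Platr17 and Samd9l. Ccr2, a receptor for monocyte-attracting chemokines also borne by effector T cells, was at 95.3 against 35.5 CPM in the lymph node library and 85.7 against 38.3 CPM in spleen. Gzmb, the cytotoxic protease granzyme B, was at 43.1 against 20.6 CPM and 70.1 against 18.2 CPM, and its lymph node UMIs came from 5 members, while 17 of its 63 spleen UMIs lay in 1. Without members that hold a Cd8a or Cd8b1 UMI the log2 ratios of Gzmb were 1.19 and 1.87, against 1.06 and 1.94 with them. Ly6c2, an antigen of effector and memory T cells, did not pass the level, at 6.81 against 1.88 CPM in the lymph node library and 42.3 against 2.03 CPM in spleen. In spleen its 38 UMIs lay in 8 members, 12 of them in 1, and without members that hold a Cd8a or Cd8b1 UMI its log2 ratio was 3.31 in place of 4.38.

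On the lower side, 6 genes were at least 2-fold lower in both libraries against comparison barcodes under the same B cell limit, which is 0.117% of 5117 genes, and 83 (1.62%) were as much higher. By library, 129 (2.52%) were that much lower and 119 (2.33%) higher in lymph node, and 46 (0.899%) lower and 93 (1.82%) higher in spleen, while 46.5% and 42.2% were higher by any amount. The 6 were Lig1, Orc6 and Rrm2, which serve DNA replication, the ATP-gated channel gene P2rx4, Penk, which encodes an enkephalin precursor, and the non-coding Snhg9. Without that limit 138 genes (2.69%) in lymph node and 61 (1.19%) in spleen were lower, and 19 (0.37%) in both, among them Cd79a, Cd74 and Ms4a1. Rrm2 was at 11.3 against 43.0 CPM in the lymph node library and 18.9 against 59.5 CPM in spleen over all comparison barcodes, and P2rx4 at 4.54 against 30.8 and 8.90 against 24.7 CPM. The Rrm2 difference in lymph node did not hold when barcodes of the highest 6% of UMIs were left out, at a log2 ratio of 0.69, or without barcodes of 3 or more mitosis UMIs, at 0.20.

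Myc target genes, which serve ribosome production and nucleotide synthesis, were lower in 31 of 36 past the level in lymph node (median -0.24) and in 36 of 36 in spleen (median -0.44), where 53.1% and 57.6% of all genes were lower. Srm, an enzyme of polyamine synthesis, was at 18.2 against 33.5 CPM and 25.6 against 47.5 CPM. With barcodes thinned to 1200 UMIs the lymph node median was -0.01 and the spleen median -0.29, so the lymph node value moved with thinning. Myc itself was at 15.9 against 30.5 CPM, from 7 UMIs, and 34.5 against 38.9 CPM, with intervals that include equality. Ribosomal protein genes had medians of -0.06 and -0.02.

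**Figure D4:**
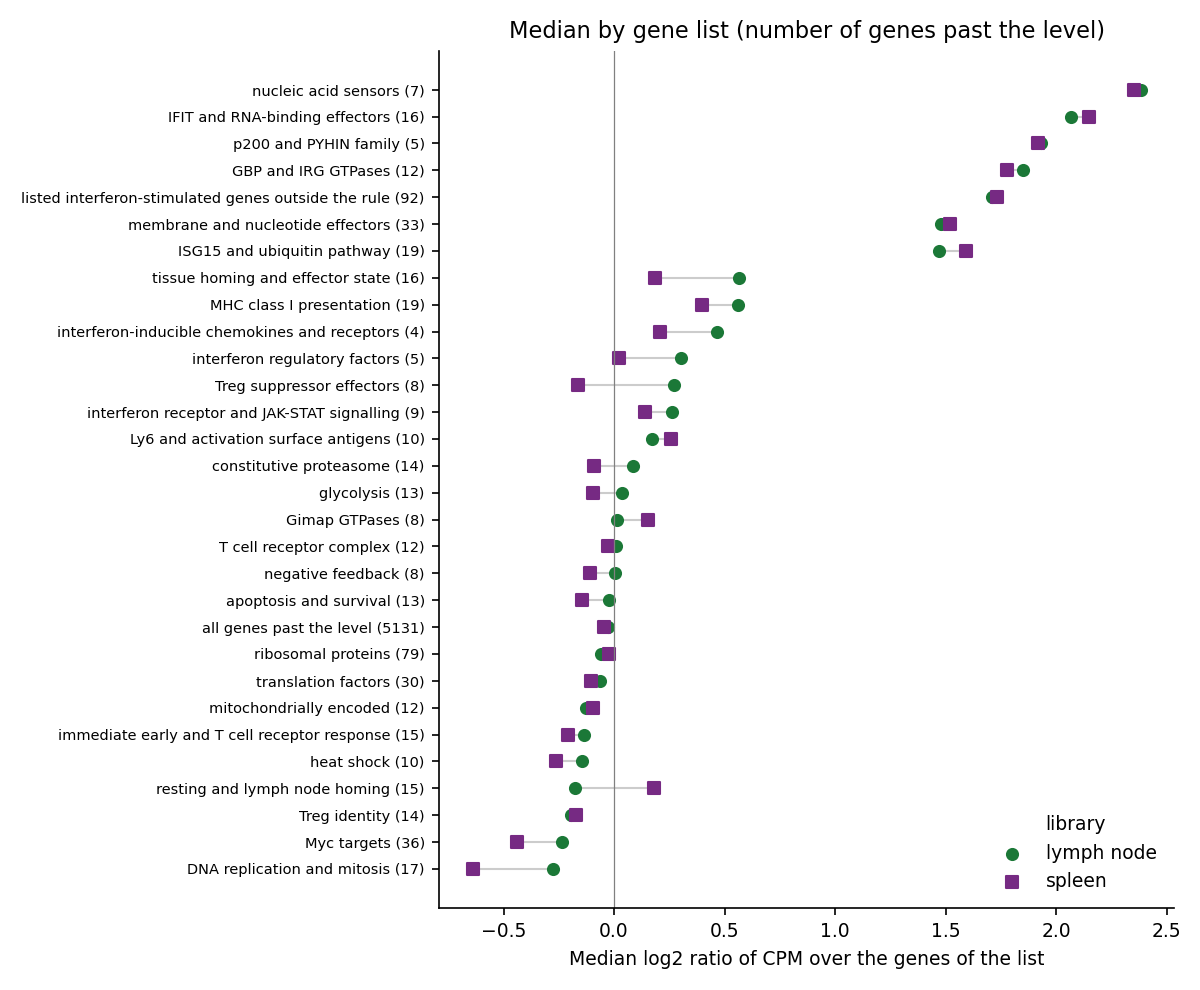
Median log2 ratio of CPM, interferon-response over comparison barcodes, for each gene list in lymph node (circles) and spleen (squares), with the number of genes past the level in brackets; lists of other cell types are left out. The interferon-stimulated lists lie between 1.47 and 2.38, MHC class I presentation lies at 0.56 and 0.40, tissue homing at 0.57 and 0.18, and DNA replication and mitosis lowest at -0.28 and -0.64. Over 12 alternatives in processing that last median ranged from -0.58 to 0.52 in lymph node and from -0.91 to -0.004 in spleen. In the interferon-stimulated lists a gene that passed the level only through members had to be higher.

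Dividing cells were present at similar shares. Of lymph node members, 4 of 139 held 3 or more UMIs of 8 mitosis genes (2.88%, exact binomial interval 0.790 to 7.2), against 1.83% of comparison barcodes under the B cell limit, and in spleen 7 of 324 (2.16%, interval 0.873 to 4.40) against 1.84%. Single barcodes weigh on these genes. Ube2c, a ubiquitin carrier of mitosis, had 61 UMIs in lymph node members, 50 of them in 1 member, and without members that hold a Cd8a or Cd8b1 UMI its log2 ratio there was -0.24. Mki67, a proliferation marker, was at 47.6 against 14.9 CPM in the lymph node library, with 12 of 21 UMIs in 1 member, and at 8.90 against 21.6 CPM in spleen.

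At equal depth the level of the other interferon-stimulated genes followed the number of rule genes in steps. In barcodes thinned to 1200 UMIs, with the rule genes counted after thinning, the listed genes outside the 9 had a median of 13 UMIs per barcode with 0 rule genes in both libraries. The median was 15 with 1 rule gene, 18 with 2, and 20 in lymph node and 24 in spleen with 3. With 4 it was 31 and 30, with 5 it was 40.5 and 42.5, and with 6 to 9 it was 52 and 44. As summed CPM, barcodes with 4 rule genes were at 26859 in lymph node and 27646 in spleen, against 11335 and 11362 with none, ratios of 2.37 and 2.43. Without Ifi27l2a these sums were 22083 and 23682 CPM against 10103 and 10136 CPM. At that depth barcodes with 1 to 3 rule genes, which the comparison classes leave out, held intermediate levels. At full depth the first step was not seen in lymph node, with 10862 CPM at 1 rule gene (interval 10760 to 10965) against 10728 CPM at none (interval 10646 to 10810), while in spleen the values were 11375 and 10418 CPM.

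**Figure D5:**
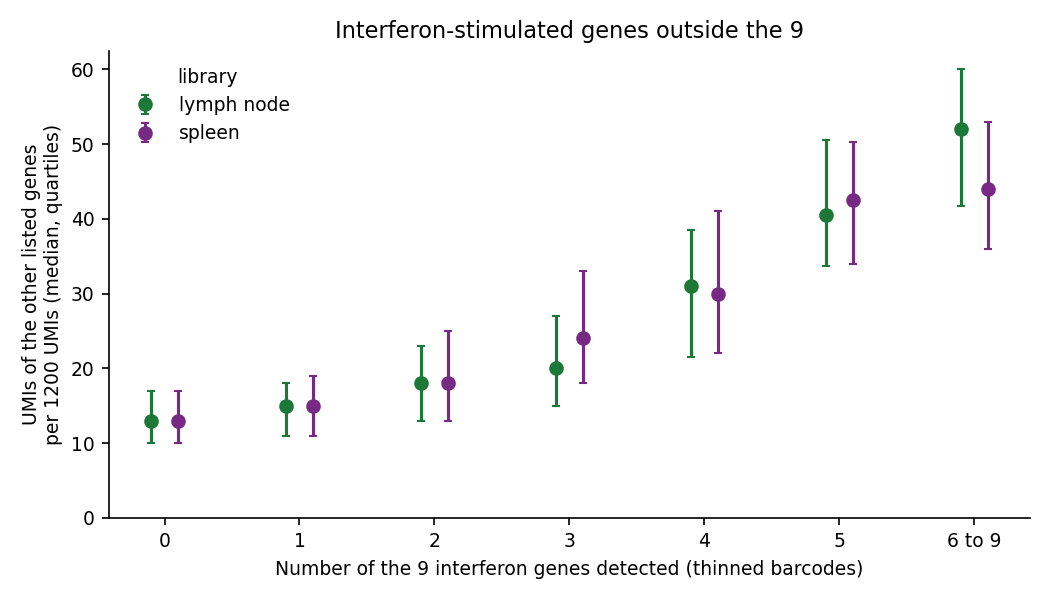
Median UMIs of listed interferon-stimulated genes outside the 9 per barcode of 1200 UMIs (bars, quartiles), by number of the 9 genes detected after thinning, in lymph node and spleen. Medians go from 13 with 0 genes to 52 in lymph node and 44 in spleen with 6 to 9.

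Members and comparison barcodes overlapped barcode by barcode. At 1200 UMIs the median member, called at full depth, held 30 UMIs of these genes in both libraries, with quartiles of 21 and 40 in lymph node and 21 and 41 in spleen. Of comparison barcodes under the B cell limit 0.668% and 0.681% reached that median. Of members 67.4% in each library lay above the 95th percentile of comparison barcodes, which was 23 UMIs.

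Spleen and lymph node members, taken as a whole, held the listed interferon-stimulated genes at a like summed level. The sums were 24081 CPM in lymph node and 24097 CPM in spleen members, a ratio of 1.0 (interval 0.978 to 1.02). The rule genes summed to 3317 and 3593 CPM, values that chose the members. Among barcodes with 6 to 9 rule genes at full depth, the listed genes outside the rule were at 35647 CPM in lymph node (interval 34630 to 36685) and 30135 CPM in spleen (interval 29559 to 30720). After thinning to 1200 UMIs they were at 41071 and 37680 CPM, with overlapping intervals. Bst2 was at 526 and 569 CPM. Of the lists, the ISG15 and ubiquitin pathway was lower in spleen, at 0.864 of the lymph node sum (interval 0.792 to 0.942), and it was at 0.913 (interval 0.875 to 0.953) in comparison barcodes. In members thinned to 1200 UMIs it was at 0.922 (interval 0.807 to 1.05), an interval that includes equality.

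In members of either library 2771 genes reached at least 50 CPM. Of these, 30 (1.08%) were at least 2-fold higher and 33 (1.19%) at least 2-fold lower in spleen members. Several of these differed in the same way among comparison barcodes. Apol9b, an apolipoprotein L gene, was at 4.54 CPM in lymph node and 63.4 CPM in spleen members and at 12.2 and 72.6 CPM in comparison barcodes under the B cell limit. Igfbp4, a binder of insulin-like growth factors, was at 31.8 and 139 CPM in members and 31.5 and 114 CPM in comparison barcodes. Ly6c1, a surface antigen of some T cell subsets, was at 111 and 240 CPM in members, 2.16-fold higher in spleen (interval 1.58 to 3.01), whereas comparison barcodes had 131 and 125 CPM. The difference between these ratios was not tested. Cxcr3, which binds Cxcl9 and Cxcl10, was at 184 and 54.5 CPM in members and 86.9 and 33.4 CPM in comparison barcodes. Ccl5, a chemokine of cytotoxic cells, was at 340 and 86.8 CPM in members and 141 and 49.9 CPM in comparison barcodes. Of its 150 UMIs in lymph node members, 55 lay in 1 member.

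The design places cells of both Foxp3 alleles in the same animals, and the added feature ICRE was the only one of the 3 with more than 2 UMIs. No source used here gives its sequence, and that it marks the Foxp3 allele with Cre is assumed. ICRE made up 9 of 61 ICRE and Foxp3 UMIs of lymph node members (14.8%, interval 6.98 to 26.2) and 34 of 133 of spleen members (25.6%, interval 18.4 to 33.8), against 26.2% and 28.8% in comparison barcodes under the B cell limit. In barcodes thinned to 1200 UMIs, with members called after thinning, the shares were 38.5% (5 of 13, interval 13.9 to 68.4) and 53.1% (17 of 32, interval 34.7 to 70.9), against 28.4% and 37.3%, so the direction turned after thinning. Barcodes with 3 or more B UMIs, which should lack both, were at 24.2% of 33 and 15% of 20 such UMIs.

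Read the other way, members made up 2.30% of ICRE-positive and 3.51% of Foxp3-positive lymph node barcodes, and 5.38% and 5.15% in spleen. ICRE-positive barcodes were shallower, with a median of 1599.5 against 2840 UMIs in lymph node and 1630 against 2931.5 in spleen. At 1200 UMIs the shares were 2.0% (interval 0.653 to 4.61) and 1.41% (interval 0.569 to 2.89) in lymph node, and 4.03% (interval 2.22 to 6.68) and 2.54% (interval 1.43 to 4.15) in spleen. These intervals overlap, and a difference between ICRE-positive and Foxp3-positive barcodes in the share of members was not detectable at this depth. At that depth the summed rule genes were at 477 CPM (interval 402 to 562) in ICRE-positive and 366 CPM (interval 319 to 418) in Foxp3-positive lymph node barcodes, and at 646 CPM (interval 571 to 728) and 537 CPM (interval 485 to 594) in spleen. The listed genes outside the rule, also at 1200 UMIs, were at 13427 CPM (interval 13015 to 13848) in ICRE-positive and 12361 CPM (interval 12080 to 12646) in Foxp3-positive lymph node barcodes. In spleen they were at 14462 CPM (interval 14099 to 14832) and 13015 CPM (interval 12751 to 13283). For these listed genes the intervals were apart in both libraries, with ICRE-positive barcodes higher, whereas those of the rule genes overlapped. At full depth the listed genes were at 13082 against 11599 CPM and 13909 against 11475 CPM. No library replicates this difference within a tissue, and it was not tested. Thinning evens out the UMIs counted but not the depth a barcode had before it. In barcodes with 0 rule genes the listed genes were at 11335 CPM in lymph node and 11362 CPM in spleen at 1200 UMIs. At 2000 UMIs, where shallower barcodes drop out, they were at 10504 and 10416 CPM. The part of original depth in the ICRE difference was not tested.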

How the data were processed

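Droplet 3' (V2) libraries of sorted CD4+ CD25+ cells, 1 from lymph node and 1 from spleen, were deposited as UMI counts per gene and barcode. The submitters' processing notes name Cell Ranger 3.0.1 and mm10 for how the authors made these counts. The libraries held 13324306 and 16868549 UMIs in 5079 and 6840 barcodes, none under 500 UMIs. Kept barcodes had 500 or more genes and no more than 10% mitochondrial UMIs, and 259 and 297 did not. No doublet caller was run here, so doublets remain. An alternative left out the highest 6% of UMIs.

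Members and gene lists were chosen with earlier results of these data known. Counts were summed over each class and scaled to CPM, with exact Poisson, exact conditional (ratios) and Clopper-Pearson (shares) 95% intervals (scipy 1.17.1, Python 3.11.15). For ratios, 0 counts were replaced by 3. No test was made. Called means at least 2-fold in the same direction in both libraries, at 20 CPM or more in either class of each. Between tissues the level was 50 CPM in members of either library. Genes were named by rule: 15 per direction, ranked by the interval bound nearest to 1 (on the lower side also against comparison barcodes under the same B cell limit), up to 4 per list, a fixed set such as Stat2 and Foxp3, and 10 on each side between tissues. Not all of them are reported here, and Ifng, Siglech and those members of the sets of 10 and 6 genes in the text that this rule does not name were chosen after their values were seen. Sequences are from RefSeq (GRCm38.p6) and positions from GENCODE M21.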

Additional observations from a re-analysis of the deposited data

Results flagged for a closer look

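Mki67, a proliferation marker, was the only gene past the level that was at least 2-fold higher in members of one library and at least 2-fold lower in the other. Its log2 ratio was 1.68 in lymph node and -1.28 in spleen. The difference was not tested, and the lymph node value rests on 21 UMIs in 5 members. Without members that hold a Cd8a or Cd8b1 UMI it was 0.59 and -2.52, and without the highest 6% of UMIs 2.99 and -0.07.

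Barcodes with 3 or more B UMIs, which the rule leaves out, also passed the condition on the 9 interferon genes. They did so in 5.45% of 110 lymph node barcodes (interval 2.03 to 11.5) and 5.66% of 106 spleen barcodes (interval 2.11 to 11.9), 6 barcodes in each library, where 2.88% and 4.95% of all kept barcodes were members. Their median depth was 3120 and 2338 UMIs, and the part of depth or doublets in this was not tested.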

How the results depend on the processing

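Depth limits every count below: lymph node members hold 440718 UMIs in all, so a gene at 20 CPM rests on about 9 UMIs there. No paired analysis was possible because each tissue has 1 library.

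The share of members was 1.80% in lymph node and 3.07% in spleen with 5 or more rule genes, 6.37% and 8.57% with 3 or more, and 1.40% and 2.44% at 1200 UMIs. The count of genes higher in both libraries was 224 with no minimum CPM and 54 with the level over all kept barcodes, and under the other 10 alternatives it was within 1.5 times the 82. The count of lower genes was 6 with the B cell limit on comparison barcodes, 29 weighted to members' UMIs, 38 thinned, 105 with no minimum and 8 at 50 CPM or more. The median of listed genes was 1.95 in lymph node with 5 or more rule genes and 1.49 in spleen with the level over all kept barcodes. The level with 4 over 0 rule genes was 1.74 and 1.80 with no thinning and 1.99 and 2.05 at 2000 UMIs. The ICRE share was 38.5% and 53.1% after thinning. With CT required after the response element core, 22.4% of the 67 genes with a window among the 82 higher in both libraries held it, and TTCCNGGAA was in 7.46% of them.

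Under the B cell limit the B cell marker median in lymph node turned to 0.083, Cd74 there to 0.0089, and in spleen Cd79a to 0.49 and Ms4a1 to 1.60, since that limit removes B cell transcripts from the comparison. Rrm2 in lymph node turned to 0.69 without the highest 6% of UMIs and to 0.20 without mitosis barcodes, Ube2c to -0.24 and Cd8b1 in spleen to -3.0 without members that hold a Cd8a or Cd8b1 UMI. Apart from Cd8b1, where it lies in the choice, the cause was not tested.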
